A study of Homo sapiens with 15 samples.

Results

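ACKR3 and CXCR4 are the 2 receptors of the chemokine CXCL12, and the 3 genes were followed here in VCaP, an androgen-responsive cell line from a prostate cancer whose ERG gene is driven by the TMPRSS2 promoter through a gene fusion. They are 3 of 20046 genes named on the array, and every probe annotated to them was taken: 1 for ACKR3, 3 for CXCR4 and 3 for CXCL12, or 7 of 47322 probes. The genes were chosen from earlier results of these data, on the level of ACKR3 after ERG knockdown. For these 3 genes, values of the knockdown against its control are therefore given as a description with no test, and tests were kept for WP1130 against DMSO and for one ERG siRNA against the other. For ERG and the pathway genes both contrasts were tested.

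RNA was measured on 15 Illumina HumanHT-12 v4 BeadChips, 3 for each of 5 groups of VCaP cells grown in serum-containing medium. The knockdown groups are ERG siRNA 1 and ERG siRNA 2, with a non-targeting siRNA as their control. The drug group received WP1130, which inhibits several deubiquitinases, with DMSO as its vehicle control. The ERG siRNAs acted for 72 h and WP1130 for 24 h, while the times of the control groups and the dose of WP1130 are not stated in the labels. All groups share 1 cell line and hence the fusion. Nothing states that arrays of a group stem from separate cultures, so a p-value speaks only of the spread among these arrays, possibly a technical one. The siRNA target ERG is a transcription factor of the ETS family.

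CXCL12 is a secreted chemokine made mainly by stromal cells, among them those of bone marrow. CXCR4 couples to inhibitory G proteins and drives cell movement toward CXCL12. ACKR3, once called CXCR7, is an atypical receptor that also binds CXCL11; it recruits arrestins rather than driving G protein signals, and it takes up CXCL12 and so removes it from the surroundings. In prostate cancer the CXCL12 receptors have been studied for the homing of tumour cells to bone.

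On each array a probe has a raw intensity, on a linear scale, and a detection p-value against the negative control beads of that array; a probe is called detected here at a detection p under 0.05. Between 18460 and 21220 probes were detected per array. Mean raw intensity per group lay between 413 and 427 in the 4 groups without WP1130 and was 311 ± 5.21 (SD, n = 3) with WP1130, which is 74.6% of DMSO. Normalised values are background-corrected, quantile normalised and on the log2 scale, and 12744 genes were tested. ERG itself had raw intensities of 167, 178 and 152 with the non-targeting siRNA, 129, 151 and 134 with ERG siRNA 1, and 153, 122 and 132 with ERG siRNA 2. In normalised values the mean of both siRNAs left 59.8% of it (95% confidence interval 47.2 to 75.7, limma adjusted p = 0.00383). Its highest knockdown array, ERG siRNA 1 replicate 2 at 5.76, came close to the lowest control array at 5.84 (log2). Of 9 prostate epithelial markers with a listed probe, 8 were detected on every array, among them TMPRSS2, HOXB13 and KRT8; KLK3 was not.

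ACKR3 was the one gene of the 3 whose transcript was measured in every group, and it was low in both knockdown groups. Its normalised level was highest with WP1130, while its mean raw intensity was highest with the non-targeting siRNA, at 315 against 300.0 with WP1130. Its probe, for the transcript NM_020311, was detected on 15 of 15 arrays. With the non-targeting siRNA its raw intensities were 291, 355 and 300, against array backgrounds of 112 to 116. With ERG siRNA 1 they were 165, 168 and 182, and with ERG siRNA 2 they were 190, 156 and 161. All 6 knockdown arrays thus lay below all 3 control arrays, and no knockdown array reached 1.7 times its own background.

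After normalisation the non-targeting arrays gave log2 7.59, 7.70 and 7.69 for ACKR3, a mean of 7.66 ± 0.06 (SD, n = 3). With ERG siRNA 1 the arrays gave 5.96, 6.14 and 6.29, a mean of 6.13 ± 0.17. With ERG siRNA 2 they gave 6.26, 5.88 and 6.11, a mean of 6.08 ± 0.19. The log2 difference from the non-targeting siRNA was -1.53 ± 0.10 (SE) with siRNA 1 and -1.58 ± 0.10 with siRNA 2. For the mean of both it was -1.55 ± 0.09, so that 34.1% of the normalised intensity was left (95% confidence interval 29.9 to 38.8). This is the contrast with which the gene was chosen, so nothing is read from its size; for 10.4% of all genes the 6 knockdown arrays lay below the 3 control arrays in the same way. The difference was -0.85 without background correction and -1.83 with the authors' processed values. As a further background, 9.58% of all genes were called lower and 10.7% higher after knockdown.

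**Figure D1:**
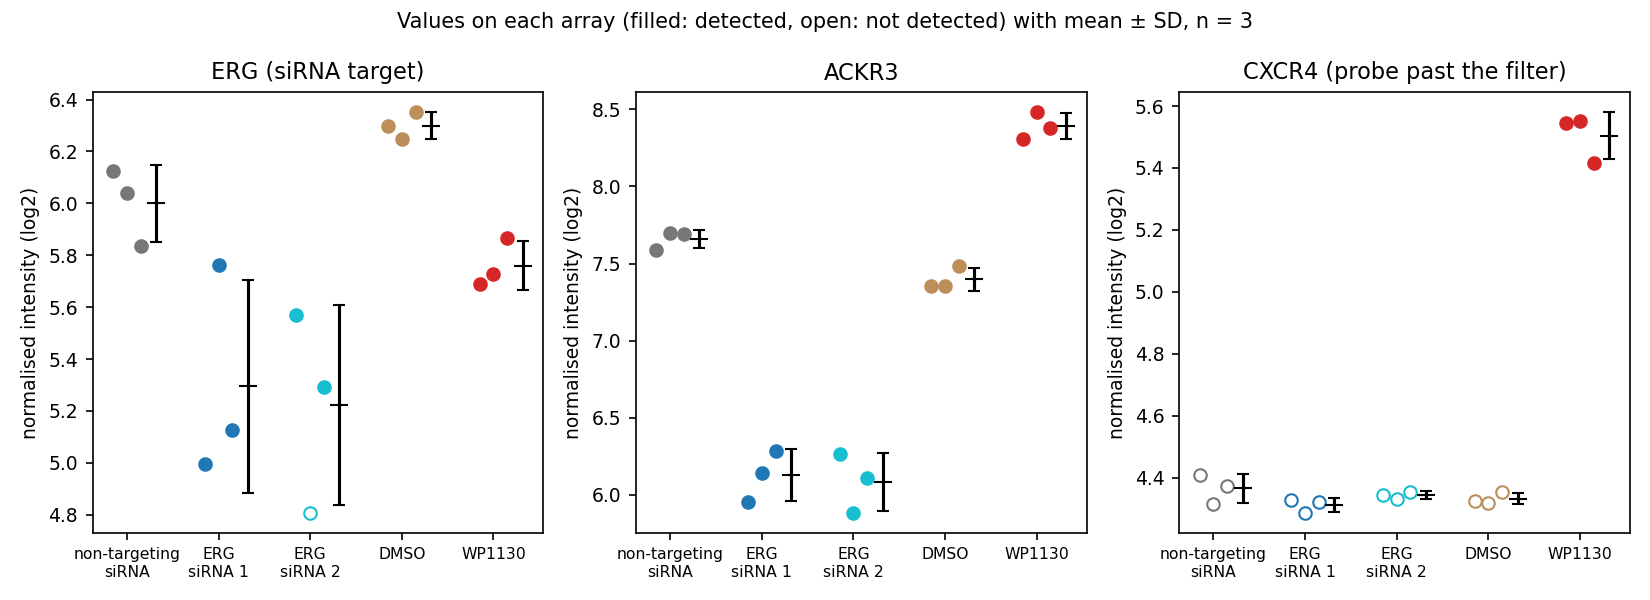
Normalised intensity (log2) of ERG, ACKR3 and the 1 CXCR4 probe that passed the filter, with a point for each of 15 arrays and the mean ± SD of 3 arrays per group; filled points were detected and open points were not. ACKR3 lies between 5.88 and 6.29 on the 6 ERG siRNA arrays and between 8.31 and 8.48 with WP1130, and CXCR4 is detected with WP1130 only.

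The 2 siRNAs against ERG gave levels of ACKR3 that overlapped. The difference of ERG siRNA 2 from ERG siRNA 1 was -0.044 ± 0.10 (SE; 95% confidence interval -0.26 to 0.17; limma adjusted p = 0.927). Differences within that interval, in either direction, cannot be told from none on these arrays. Few genes separated the siRNAs at all, since 15 of 12744 genes, or 0.118%, passed the threshold between them. Within a group the arrays ranged as widely, from 5.88 to 6.26 with ERG siRNA 2. Without ERG siRNA 1 replicate 3 or without ERG siRNA 2 replicate 2 the sign of the difference turned, to 0.035 and 0.056.

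WP1130 raised ACKR3 relative to the other genes on the array. In raw intensity the DMSO arrays gave 259, 283 and 298 and the WP1130 arrays 290, 304 and 306, so that the 2 groups overlapped and their means, 280 ± 19.5 (SD, n = 3) and 300.0 ± 8.75, were close. After normalisation DMSO stood at log2 7.36, 7.36 and 7.48, and WP1130 at 8.31, 8.48 and 8.38, with no overlap. The log2 difference was 0.99 ± 0.10 (SE; limma adjusted p = 6.39e-07), or 1.99-fold (95% confidence interval 1.72 to 2.31). For comparison, 21.9% of all genes were called as higher with WP1130 and 37.1% as lower, and for 23.7% the WP1130 arrays all lay above the DMSO arrays.

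How much of the WP1130 rise is seen rests on how the dimmer WP1130 arrays are scaled to the others. With median scaling in place of quantile normalisation the difference was 0.40 (adjusted p = 0.00885), and with no scaling between arrays it was 0.21 ± 0.14 (SE; adjusted p = 0.173), no longer past the threshold. Under the same settings the median of all genes was at -0.46 and -0.65, against -0.12 in the setting of the report. ACKR3 therefore stood 1.11, 0.86 and 0.86 above the median gene in the 3 settings. After subtracting each array's background the raw signal was 170 ± 18.6 (SD, n = 3) with DMSO and 197 ± 10.2 with WP1130, which is 116% of DMSO. The part of the lower overall intensity of the WP1130 arrays in this difference was not tested.

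**Figure D2:**
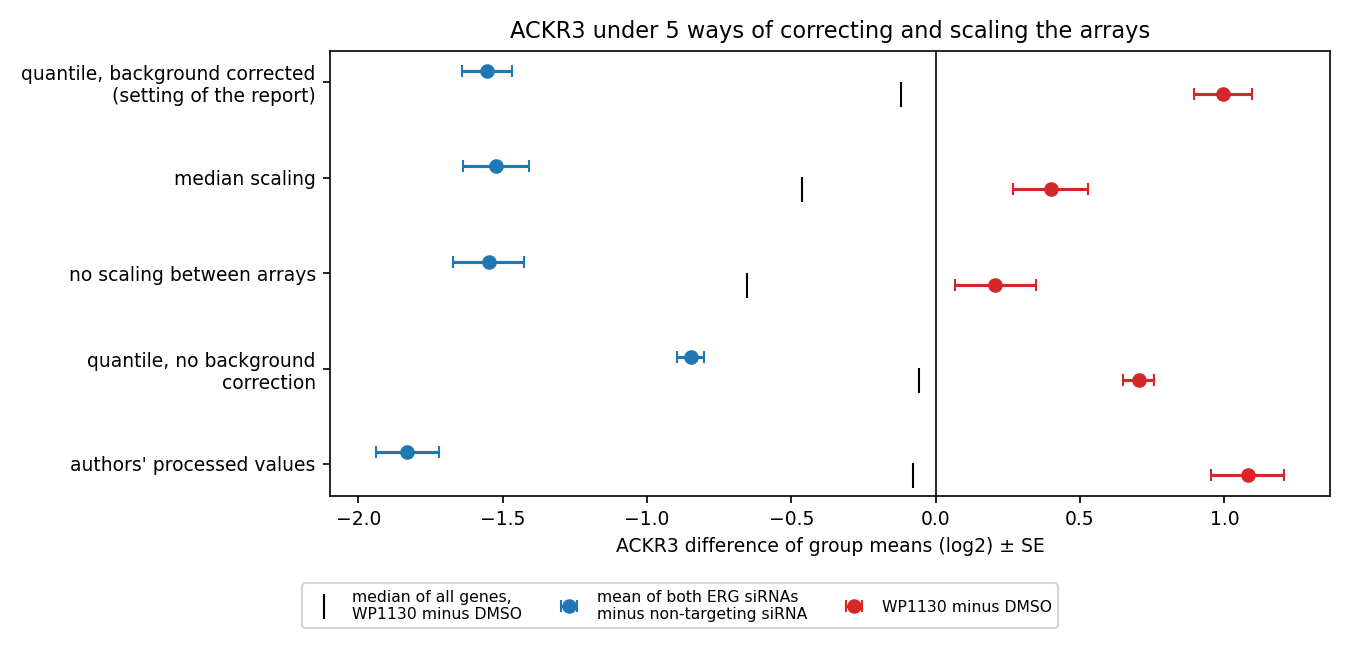
Difference of ACKR3 group means on the log2 scale (± SE) under 5 ways of correcting and scaling the arrays, for the mean of both ERG siRNAs against the non-targeting siRNA (blue) and for WP1130 against DMSO (red); the black marks are the median of all genes for WP1130 against DMSO. The knockdown difference runs from -1.83 to -0.85 and the WP1130 difference from 0.21 to 1.08, always to the right of the median gene.

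Ordered by normalised level, ACKR3 was highest with WP1130, then with the non-targeting siRNA, then with DMSO, and lowest with the 2 ERG siRNAs, which overlapped. The order of the first 2 rests on the scaling. With no scaling WP1130 minus DMSO was 0.21, while DMSO minus non-targeting siRNA was -0.23. The background-subtracted raw signal was 197 with WP1130 and 202 with the non-targeting siRNA. In normalised values the 2 control groups did not overlap, with DMSO between 7.36 and 7.48 and the non-targeting siRNA between 7.59 and 7.70. For 19.3% of all genes the DMSO arrays lay below the non-targeting arrays in the same way. Their log2 difference was -0.26 ± 0.10 (SE), given without a test because it shares the non-targeting arrays with the knockdown contrast. ERG followed another order: it was lower with WP1130 than with DMSO (-0.54 ± 0.18 (SE), limma adjusted p = 0.0203), while ACKR3 was not lower there under any of the 5 settings. The ERG probe for NM_004449 went the other way in normalised values, at log2 5.08 with WP1130, where 2 of 3 arrays detected it, and 4.68 with DMSO, where 0 did. In raw intensity its mean was not higher, at 116 with WP1130 and 118 with DMSO.

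CXCR4 was at background in all groups but WP1130. Its probe for the transcript NM_003467 was detected on 3 of 15 arrays, the 3 of WP1130. There the raw intensities were 126, 122 and 123, against array backgrounds of 101 to 105. With DMSO they were 100, 102 and 104, with backgrounds of 109 to 112. The WP1130 arrays lay above all 12 other arrays, whose raw values ran from 97.6 to 108, although the WP1130 arrays were the dimmest overall. The raw values separated in the same way for 4.48% of all genes tested.

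In normalised values that CXCR4 probe was at log2 5.55, 5.55 and 5.42 with WP1130 and at 4.33, 4.32 and 4.35 with DMSO, where it was not detected. Its transcript was at least 1.49-fold higher with WP1130 than with DMSO (group means 5.50 and 4.33). The bound sets the WP1130 mean against the lowest value of any detected probe on each DMSO array, and it was 1.19 with no scaling and 1.13 without background correction. The probe passed the detection filter only through the WP1130 arrays, so a difference there was a condition of its being kept, and no p is given. With the non-targeting siRNA, ERG siRNA 1 and ERG siRNA 2 the detection p of this probe was never under 0.664, so a change of CXCR4 after ERG knockdown was not detectable on these arrays.

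The other 2 CXCR4 probes, both annotated to the transcript NM_001008540, did not rise above background anywhere. The first gave raw intensities of 107 to 123 over the 15 arrays, with a lowest detection p of 0.126. The second gave 95.6 to 106, with a lowest detection p of 0.453. With WP1130 they read 109, 107 and 108, and 101, 99.8 and 103. The rise of CXCR4 thus rests on 1 of 3 probes, at 1.20 to 1.21 times the array background.

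The CXCR4 upstream sequence is printed because CXCR4 was detected in 1 condition only, and it shows which short motifs lie before its outermost annotated start. It covers the 250 bases upstream of that start in RefSeq on GRCh38.p14, chr2:136118150-136118399, minus strand, read 5′ to 3′. Capitals mark GGAA, the core of ETS sites, on either strand and TATAAA, the TATA box, on either strand.
CXCR4: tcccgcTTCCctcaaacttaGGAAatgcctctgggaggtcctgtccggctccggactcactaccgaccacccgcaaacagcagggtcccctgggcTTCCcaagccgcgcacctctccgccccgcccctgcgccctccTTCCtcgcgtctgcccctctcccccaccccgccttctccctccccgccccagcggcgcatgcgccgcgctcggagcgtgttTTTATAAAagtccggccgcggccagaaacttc

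The window held 4 matches to GGAA, 1 on the printed strand and 3 on the other, and 92.7% of 35116 windows of the same length before annotated human starts held at least 1. TATAAA matched on both strands, overlapping, from 32 and 30 bases before the start, and 10.7% of windows held it. GCGTG and ACGTG, cores of the sites of hypoxia-inducible factors, had 1 and 0 matches, against 32.2% and 18.5% of windows. The longer ETS motif CCGGAA had 0 matches (14.5% of windows) and TGANTCA, the site of AP-1, the FOS and JUN dimer, had 0 (6.57%). Both strands were searched, and CCGGAA contains GGAA. The 250 bases before the CXCL12 start, chr10:44385098-44385347 on the minus strand, held 0 matches to each of the 6 motifs. A match is a string of letters and no binding site, and its absence says only that the letters are not in this window.

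CXCL12 was not measured above background. Of its 3 probes, those for NM_199168 and one of the pair for NM_000609 were detected on 0 of 15 arrays, with lowest detection p-values of 0.0545 and 0.638. The other NM_000609 probe was detected on 1 array, ERG siRNA 2 replicate 3, at a detection p of 0.0312, and its raw intensity of 124 there compares with 115 to 121 on the other 2 arrays of that group. Raw intensities of the 3 probes ran from 93.6 to 128 over all arrays. None passed the filter, so no fold change is given for CXCL12, and its level in these cells was under what the arrays could detect in all 5 groups.

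**Figure D3:**
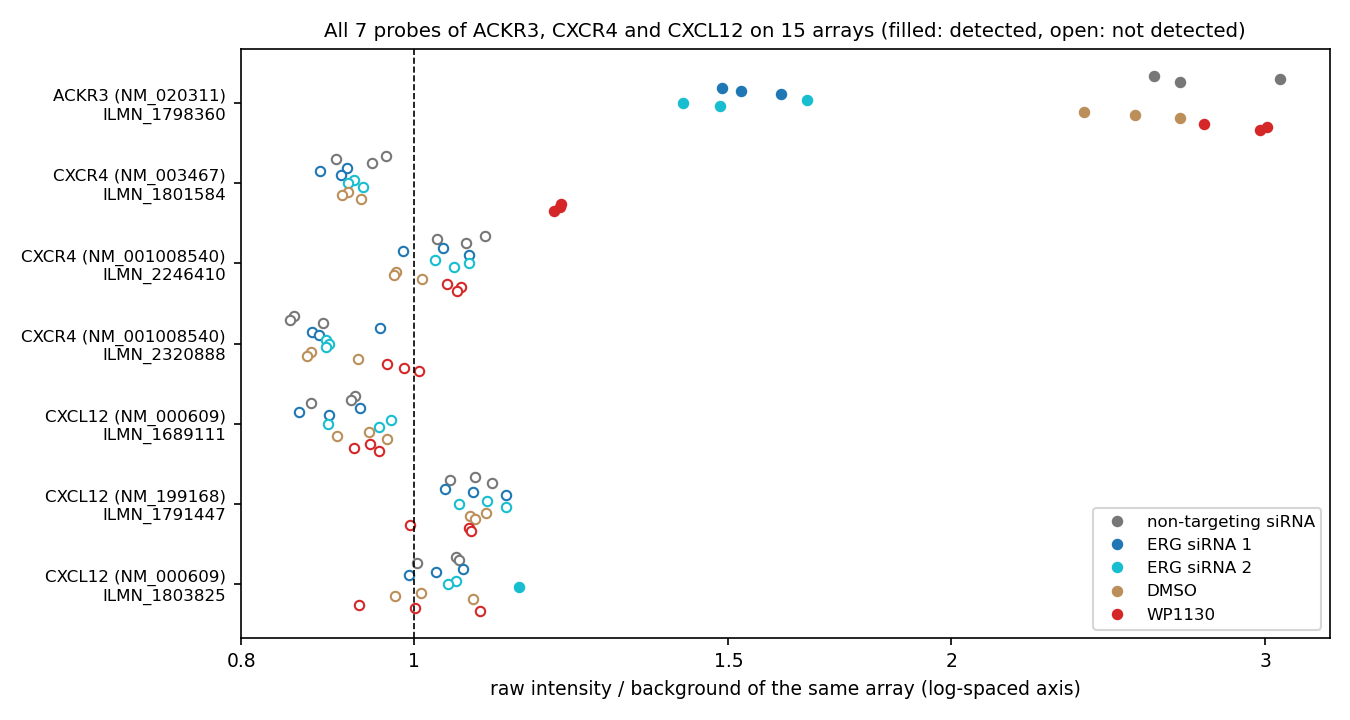
Raw intensity divided by the background of the same array for the 7 probes of ACKR3, CXCR4 and CXCL12, with a point per array, coloured by group and filled where detected; the dashed line is the background. ACKR3 lies between 1.42 and 3.06 times the background, the CXCR4 probe for NM_003467 stands at 1.20 to 1.21 with WP1130, and all other probes scatter about 1.

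The pathway around the receptors was followed in 8 lists with 162 genes, of which 106 passed the filter. With WP1130, 33 of them rose and 27 fell, or 56.6%, against 59% of all genes. With median scaling 24 rose and 57 fell, beside 1464 rises and 7852 falls among all 12744 genes. With no scaling 21 rose and 68 fell, beside 1108 rises and 9321 falls among all genes. The balance of rises and falls thus rests on the scaling, for the lists as for all genes. With the ERG siRNAs 9 rose and 8 fell, or 16%, against 20.2% of all genes. In the setting of the report the lists together were thus called about as often as all genes. List by list, 50% to 80% of the measured genes were called with WP1130 and 0% to 40% with the ERG siRNAs. For WP1130 the directions below hold relative to a median of all genes of -0.12, which was -0.46 with median scaling and -0.65 with no scaling.

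Among 22 other chemokine receptors, 6 passed the filter. With WP1130 3 rose and 0 fell, or 50%, against 59% of all genes (median 0.42, against -0.12 for all genes). ACKR2, an atypical receptor that takes up inflammatory chemokines, was detected only with WP1130 and was at least 2.41-fold higher there than with DMSO. CCRL2, a receptor-like protein that binds chemerin, was likewise detected only with WP1130 and was at least 1.27-fold higher. CCR6, the receptor of CCL20, rose by 0.61, with 0.287 from its other probe. These 3 calls held with median scaling and with no scaling, and 2 of the 3 genes passed the filter through the WP1130 arrays alone. With the ERG siRNAs 0 of the 6 receptors passed limma's threshold, against 20.2% of all genes.

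Of the further ligands and co-receptors of ACKR3 or CXCR4, 5 of 8 were measured. With WP1130 3 rose and 0 fell, or 60%, against 59% of all genes, and 2 rose and 3 fell with no scaling. ADM, which encodes adrenomedullin, a peptide that ACKR3 also binds, rose by 3.61 ± 0.11 (log2 ± SE) with WP1130 (limma adjusted p = 3.09e-13) and was at -0.24 with the ERG siRNAs (adjusted p = 0.0931). SDC4, a heparan sulfate proteoglycan that binds CXCL12 beside CXCR4, rose by 2.55 with WP1130 and fell by 0.80 with the ERG siRNAs. HMGB1, a nuclear protein that binds CXCL12 outside the cell, was at 0.27 and past the threshold with WP1130, but at -0.31 with median scaling and -0.51 with no scaling. CXCL11, the other chemokine ligand of ACKR3, was at -0.19 (limma adjusted p = 0.241) and MIF, a cytokine that also binds CXCR4, at -0.15 (adjusted p = 0.0684) with WP1130. Both were short of the threshold in the setting of the report. CXCL11 was past it as lower with no scaling only (-0.42). MIF was past it as lower with median scaling (-0.46) and with no scaling (-0.65). It was also past it without background correction and with the authors' processed values (-0.15 in each).

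Of 28 other chemokines 10 were measured. With WP1130 6 rose and 1 fell, or 70%, against 59% of all genes (median 0.84). With the ERG siRNAs 0 passed, against 20.2% of all genes (median -0.11). CXCL8, the neutrophil chemokine interleukin-8, rose by 3.54, and its other probe gave 5.52. CCL2, a monocyte chemokine, rose by 2.26, and CCL20, the ligand of CCR6, was detected only with WP1130 and was at least 3.43-fold higher. CCL20 and CXCL1, another of the rises, passed the filter only through the WP1130 arrays, so a high level there was a condition of their being kept. CXCL16, a membrane-bound chemokine, fell by 0.53, but its other probe gave 1.48. With no scaling 5 rose and 1 fell, CCL5 being the one lost.

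Proteases that cleave CXCL12 had 5 of 11 genes measured. With WP1130 4 rose and 0 fell, or 80%, against 59% of all genes (median 1.11). DPP4, the dipeptidyl peptidase CD26 that inactivates CXCL12 at its amino end, rose by 1.11 and was past the threshold in all 5 settings. The matrix metalloproteases MMP1 and MMP9, detected only with WP1130, were at least 4.01-fold and at least 2.09-fold higher. MMP1, MMP3 and MMP9 passed the filter only through the WP1130 arrays, so a high level there was a condition of their being kept. The count and median of this list therefore rest in large part on the filter. With the ERG siRNAs 1 gene passed, or 20%, against 20.2% of all genes. It was CPM, a carboxypeptidase, at 0.41, while its other probes lay between -0.16 and -0.01.

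G proteins, receptor kinases, arrestins and RGS proteins carry or end the receptors' signals. With WP1130 4 of 23 rose and 8 fell, or 52.2%, against 59% of all genes. With median scaling 3 rose and 15 fell, and with no scaling 3 and 18. RGS2, which shortens G protein signals, rose by 4.74, and RGS4, of the same family, by 1.48. GRK5, a kinase that marks active receptors for arrestins, rose by 1.79, with 0.28 from its other probe. RGS19 fell by 0.78 and GNAQ by 0.59. GNAI1, the inhibitory G protein subunit of the kind CXCR4 uses, fell by 0.72 with WP1130, with 0.02 from its other probe, and by 0.66 with the ERG siRNAs, with -0.34 from the other probe. GNAI2, the related subunit, was at -0.20 with WP1130 (limma adjusted p = 0.0863; lower and past the threshold with median and no scaling) and at 0.036 with the ERG siRNAs (adjusted p = 0.811). With the ERG siRNAs 2 rose and 3 fell, or 21.7%, against 20.2% of all genes. RGS2 rose by 0.43 and RGS4 by 0.28, and beside GNAI1, RGS12 fell by 0.52 and GNG5 by 0.31. The call of RGS4 was lost with no scaling, and that of GNG5 with either other scaling.

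Genes of receptor ubiquitination, sorting and recycling decide whether CXCR4 is degraded or returned to the surface. With WP1130 3 of 20 rose and 7 fell, or 50%, against 59% of all genes. With the ERG siRNAs 1 rose and 0 fell, or 5%, against 20.2%. The riser was TSG101 of the sorting machinery at 0.26, a call lost with either other scaling. With WP1130 USP14, a proteasomal deubiquitinase that also removes ubiquitin from CXCR4, fell by 0.75, with -0.64 from its other probe. RAB4A, a recycling GTPase, fell by 0.82, DTX3L, a ubiquitin ligase that acts beside ITCH, by 0.54, and ITCH, the ligase that marks CXCR4 for degradation, by 0.40. The 3 rises, HGS (0.57), RAB5A (0.49) and STAM (0.27), did not hold, since 0 rose and 16 fell with median scaling, and 0 rose and 19 fell with no scaling.

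Downstream signalling genes had 5 up and 10 down of 27 with WP1130, or 55.6%, against 59% of all genes. With no scaling 1 was up and 20 were down. In the setting of the report LYN, a SRC family kinase, rose by 0.998 with WP1130. VAV3, a guanine nucleotide exchange factor, rose by 0.73, with 1.49 from its other probe. Both were past the threshold with median scaling and not with no scaling. ROCK2, a kinase that acts on the cytoskeleton, rose by 0.72, with 0.22 from its other probe, and passed in each setting. ROCK1, its relative, was at -0.61, with 0.16 from its other probe, PLCB2 fell by 0.47 and RHOA by 0.35. With the ERG siRNAs 3 rose and 2 fell, or 18.5%, against 20.2% of all genes. PIK3CB, a catalytic subunit of PI3-kinase, rose by 0.53, STAT3 by 0.38 and LYN by 0.37. TIAM1, which activates RAC1, fell by 0.93 and DOCK1 by 0.26, the last not past the threshold with median or no scaling.

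Of 10 measured transcription factors known to act on these genes, 5 rose and 1 fell with WP1130, or 60%, against 59% of all genes. With median scaling 4 rose and 6 fell, and with no scaling 3 and 6. NFKB1, one of the rises at 0.26, was at -0.30 and -0.49 there. EGR1 rose by 4.81, KLF2 by 3.46, and FOXO1, not detected with DMSO, was at least 1.74-fold higher. FOXO1 too passed the filter only through the WP1130 arrays. VHL, which marks hypoxia factors for degradation, fell by 0.29, and its other probes lay between -0.25 and -0.001. EPAS1, which encodes the hypoxia-inducible factor HIF-2 alpha, rose by 1.08 with WP1130, past the threshold with median scaling (0.50) and not with no scaling (0.31, limma adjusted p = 0.0584). With the ERG siRNAs EPAS1 fell by 1.22 and NFKB1 by 0.25, and EGR1 (0.43) and KLF2 (0.29) rose; NFKB1 lost its call with both other scalings and KLF2 with no scaling. HIF1A, the related hypoxia factor, was at -0.19 with WP1130 (limma adjusted p = 0.127, but lower and past the threshold with both other scalings) and at 0.052 with the ERG siRNAs (adjusted p = 0.748).

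**Figure D4:**
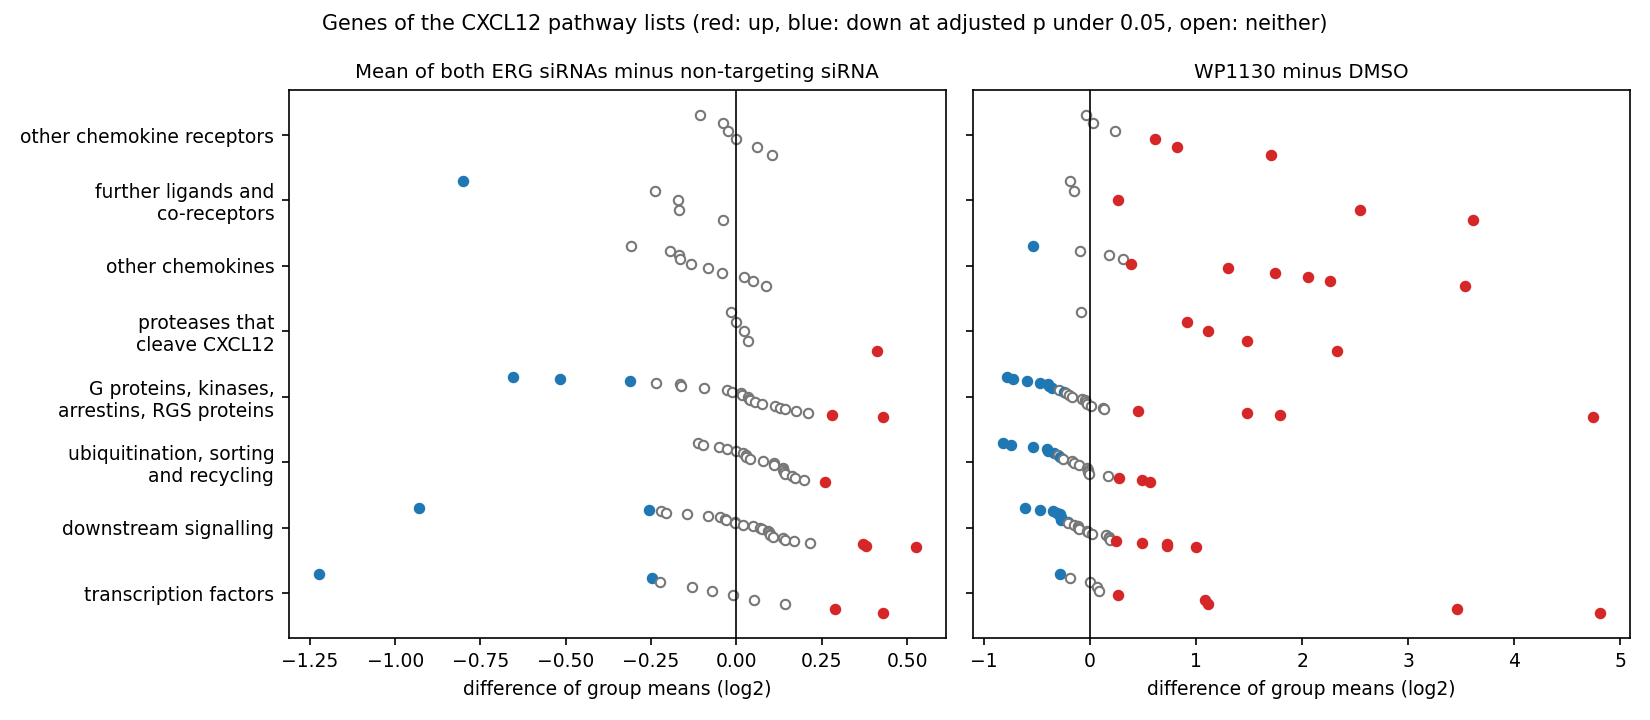
Difference of group means (log2) for each measured gene of the 8 pathway lists, for the mean of both ERG siRNAs against the non-targeting siRNA (left) and WP1130 against DMSO (right, on a wider axis); red and blue points passed the threshold and genes detected in 1 group only are drawn at their fitted value. With WP1130 the chemokine and protease lists have 6 of 10 and 4 of 5 genes up, against 21.9% of all genes. Of these, CXCL1, CCL20, MMP1, MMP3 and MMP9 passed the filter only through the WP1130 arrays. With the ERG siRNAs both lists together have 1 gene past the threshold, which 20.2% of all genes passed.

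Over the 15 arrays the genes most like ACKR3 were PAPSS2, which makes the sulfate donor of the cell (Pearson r = 0.983), RUNDC3B (0.983), LFNG, a Notch-modifying glycosyltransferase (0.983), CYP4F11 (0.983) and MGP, a matrix calcification inhibitor (0.980). Each was lower with the ERG siRNAs, at log2 differences of -1.69, -0.81, -1.22, -1.11 and -1.74, and higher with WP1130, at 1.12, 0.55, 0.59, 0.59 and 1.69. These genes were picked for their likeness to ACKR3 over the same arrays, so the shared directions follow from the choice. With no scaling PAPSS2 (0.34) and MGP (0.95) were still higher with WP1130, while RUNDC3B (-0.22), LFNG (-0.067) and CYP4F11 (-0.12) turned. The most opposite were IDH1, a cytosolic isocitrate dehydrogenase (-0.989), LRRTM4 (-0.980) and ATOH1 (-0.979). In all, 78 of 12575 genes had an r over 0.9 with ACKR3. With CXCR4, which is high in 1 group and at background elsewhere, 964 had one, led by FOS (0.998), PNLDC1 (0.998), FOSB (0.997), HLA-G (0.997) and RN7SK (0.997), and PHF20 (-0.990), SLC15A4 (-0.989) and HILPDA (-0.989) were most opposite. FOS, PNLDC1, FOSB and HLA-G, like CXCR4, passed the filter only through the WP1130 arrays. A high level there was a condition of their being kept, so nothing is read from their likeness to CXCR4. The arrays share 5 groups, so these values describe likeness between group means.

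Markers of other cells were looked at because leukocytes carry CXCR4 and fibroblasts make CXCL12. Of 9 blood cell markers with a listed probe, 1, CD14, was detected on every array, and the leukocyte marker PTPRC was not. The summed normalised signal of the blood list was 277 to 289 with the non-targeting siRNA, 230 to 273 with the ERG siRNAs, 297 to 332 with DMSO and 485 to 520 with WP1130. CD14 was higher by 0.93 with WP1130, with 0.135 from its other probe, but at 0.15 with no scaling (limma adjusted p = 0.313), and it fell by 0.49 with the ERG siRNAs (adjusted p = 6.21e-05), with -0.024 from its other probe. The summed signal thus moved with ACKR3 in both contrasts and with CXCR4 under WP1130. Of the 2 measured genes of the list, though, only CD14 was called. The other, MS4A1, was at 0.0076 with WP1130 and at 0.197 with the ERG siRNAs, neither past the threshold. The part of the blood list in those results was not tested. Of 8 fibroblast markers LUM alone was detected on every array, and the summed signal was 314 to 358 with the non-targeting siRNA, 529 to 610 with the ERG siRNAs, 714 to 732 with DMSO and 434 to 482 with WP1130. This sum moved opposite to ACKR3 in both contrasts, and its part there was not tested. LUM rose by 0.92 with the ERG siRNAs (limma adjusted p = 8.15e-07) and fell by 0.84 with WP1130 (adjusted p = 1.35e-06). The other measured fibroblast markers, COL1A1 and DCN, were called in neither. Of 8 endothelial markers 2 to 3 were detected on every array of a group, ENG among them each time. The summed signal was 168 to 207 with the non-targeting siRNA, 148 to 163 with the ERG siRNAs, 196 to 238 with DMSO and 167 to 210 with WP1130. After knockdown this endothelial sum was lower, like that of the blood list and like ACKR3, and its part there was not tested. Of the 3 measured markers VWF was called lower there (-0.33, limma adjusted p = 0.0079), while ENG and EGFL7 were not called. With WP1130 VWF rose by 0.63 and ENG fell by 0.56.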

How the data were processed

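The deposited non-normalized table holds, per the file headers, an intensity per probe and array on a linear scale beside a deposited detection p-value for 15 arrays. The submitters' processing notes name GenomeStudio, with neither version nor role. A second deposited table, the authors' processed intensity values, served as an alternative after a floor of 16; how they were made is not stated in the labels. No further columns were left unmapped (0).

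The neqc function of limma 3.58.1 (R 4.3.3) corrected the background, with negative beads inferred from detection p-values and an offset of 16, normalised by quantiles and took log2. Probes detected (p under 0.05) on at least 3 arrays were kept (23281), and the probe of highest mean stood for each of 12744 genes. A single listed symbol belonged to 30113 probes and several to 8, while 17201 probes had no entry and are unnamed here. A 5-group limma model (10 residual degrees of freedom) was fitted to all arrays, with moderated two-sided tests. P-values were adjusted by Benjamini-Hochberg across the 12744 genes and called under 0.05. Precision is limited by how few arrays there are, with a median SE of 0.10 between 2 groups. The background of an array is the median intensity of probes with a detection p near the middle of its range.

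The members and lists were chosen with earlier results of these data known. Named are the members, ERG, the 5 genes most like and 3 most opposite to each measured receptor (placeholder symbols left out), up to 3 rises and 3 falls per list, and USP14, GNAI2, CXCL11 and MIF; ITCH, HIF1A, CCL5 and the markers were added for their role or a lost call. The fit was tested on simulated data. Same-numbered replicates deviated together (correlation over 0.1) in 3 of 12 pairs, so the numbers were not taken as pairs. Promoter sequences came from RefSeq tables on GRCh38.p14, which held windows for CXCR4 and CXCL12. A slide block was not run, since the labels and headers name no slides.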

Additional observations from a re-analysis of the deposited data

How the results depend on the processing

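The rise of ACKR3 with WP1130 kept its direction under all alternatives and was past the threshold in all but 1, with no scaling between arrays (0.21, adjusted p = 0.173); leaving out 1 array gave 0.95 to 1.04. The CXCR4 bound, from a probe kept only through the WP1130 arrays, ran from 1.13 to 1.62-fold, and from 1.47 to 1.54 with 1 array left out; with no filter another CXCR4 probe, not detected in either group, stood for the gene, so there was no value. The ACKR3 difference after ERG knockdown was -0.85 without background correction and -1.83 with the authors' processed values, and -1.60 to -1.50 with 1 array left out. Between the siRNAs it ran from -0.13 to 0.056 with 1 array left out, with the sign turned without ERG siRNA 1 replicate 3 (0.035) or ERG siRNA 2 replicate 2 (0.056). DMSO minus non-targeting siRNA ran from -0.30 to -0.24 with 1 array left out. It was -0.17 without background correction, -0.19 with median scaling, -0.23 with no scaling and -0.29 with the authors' processed values.

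Genes called for WP1130 numbered 7519, and 11945 with every probe on its own, which tests more features. For the ERG siRNAs they numbered 2580, 1402 with no scaling, and 1830 to 2489 with 1 array left out; pathway genes called numbered 17, 11 with no scaling, and 12 to 20. Between the siRNAs 15 genes passed, 58 without background correction, 6 with median scaling, 3 with no scaling, 28 with the authors' processed values, 1 with only the groups compared, and 9 to 14 with 1 array left out. Of called genes with WP1130, 37.1% were higher, but 15.7% with median scaling and 10.6% with no scaling; for the ERG siRNAs 52.7%, 67.8% and 61.1%. With the replicate block ACKR3 stood at 0.99, past the threshold, and the CXCR4 bound at 1.49 for WP1130 against DMSO, and 13 genes passed between the siRNAs. The cause of these shifts was not tested. CXCR4 and CXCL12 near background are limited by signal: changes below detection cannot be seen.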
